A study of Rattus norvegicus with 12 samples.

Results

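Purkinje cells are the large inhibitory neurons that carry the output of the cerebellar cortex. The genes examined here were 9 marker genes of these cells, namely Calb1, Pcp2, Pcp4, Car8, Rora, Slc1a6, Lhx1, Lhx5 and Foxp2, out of 26214 gene names on the array. They were found by matching the gene name given for each probe, and each had 1 probe. The arrays held RNA from neuron-enriched cultures of the cerebellum of 1-day-old Sprague-Dawley rats, harvested at 16 days in vitro (16 DIV). The control group (n = 6) received the solvent DMSO at 0.001%, and the ACE group (n = 6) received 1 µM acetamiprid, a neonicotinoid insecticide that acts on nicotinic acetylcholine receptors, in the same solvent from day 2 onwards. Each replicate number stood for 1 lot of cells, pooled from the pups of a litter, that was divided between both groups, so lots and pairs are the same thing below. The cultures held glia and other cells as well as neurons. In such mixed RNA, fewer Purkinje cells and less RNA of a marker per Purkinje cell cannot be told apart.

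Purkinje cells depend on steep calcium signals, and several of their markers handle calcium. Calb1 encodes calbindin, a calcium buffer. Pcp4 encodes a small calmodulin-binding peptide, and Pcp2 (also called L7) a modulator of G protein signalling. Car8 encodes a carbonic anhydrase-related protein without enzyme activity that binds the IP3 receptor. Slc1a6 encodes EAAT4, the glutamate transporter of Purkinje cell spines. The other markers are transcription factors: Rora is the nuclear receptor that Purkinje cells need to mature, Lhx1 and Lhx5 are LIM homeodomain factors of their early differentiation, and Foxp2 is a forkhead factor. None of these genes belongs to Purkinje cells alone in the whole body, and several are also made by other neurons or by glia.

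The probes of Calb1, Pcp2 and Slc1a6 are shown because they span more of the genome than their 60 bases. This is the form of a probe that reads spliced RNA across an intron, which was not checked against exon boundaries. They are written 5′ to 3′ as the array files give them. Coordinates are those of the array files (build rn4). The Calb1 probe spans 209 bases on the plus strand at chr5:30475783-30475991, the Pcp2 probe spans 1090 bases on the plus strand at chr12:2530446-2531535, and the Slc1a6 probe spans 1460 bases on the minus strand at chr7:12393594-12395053.
Calb1: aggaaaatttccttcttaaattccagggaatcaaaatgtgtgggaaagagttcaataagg
Pcp2: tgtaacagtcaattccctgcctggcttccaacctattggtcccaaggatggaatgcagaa
Slc1a6: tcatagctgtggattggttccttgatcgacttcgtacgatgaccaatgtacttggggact

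The other probes lay within single stretches of 60 bases: Pcp4 at chr11:36828274-36828333, Rora at chr8:73817595-73817654 and Foxp2 at chr4:40951705-40951764 on the plus strand, and Car8 at chr5:21951285-21951344, Lhx1 at chr10:72800501-72800560 and Lhx5 at chr12:37323877-37323936 on the minus strand. Exon and intron boundaries of build rn4 were not analysed here.

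Signal is given as quantile-normalised log2 intensity of the Cy3 channel. Levels of different probes are not compared, because probes differ in how well they bind. Calb1, Pcp2, Pcp4, Car8, Rora and Slc1a6 were well above background on all 12 arrays. Lhx1 was well above background on 11 arrays, the exception being ACE replicate 6. Lhx5 was well above background in the control and ACE cultures of lots 1, 2 and 3 only, and Foxp2 in those of lot 1 only. Foxp2 was below the 20th percentile on all arrays, did not pass the filter on low signal and was not tested. The 2 arrays of lot 1 were the brightest: 90.4 to 91.0% of their gene spots were well above background, against 75.4 to 84.7% on the other 10 arrays.

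For most markers the control and ACE cultures of a lot were nearer to each other than the lots were. The exception was the dim factor Foxp2, whose pair differences had an SD of 0.66 log2 against 0.30 between lots, and for Lhx5 both were of like size (0.50 against 0.54). Lot means average the control and ACE cultures, so their SD would be smaller than that of pair differences if lots did not differ. Like size therefore does not mean that lots did not differ. Calb1 ranged from 10.35 to 12.03 in control (median 10.75) and from 10.12 to 11.79 in ACE (median 10.68). Replicate 1 was the highest of each group, well clear of the next values of 10.77 in control and 10.91 in ACE, and the groups overlapped over nearly their whole range. Pcp2 ranged from 9.13 to 11.35 in control (median 10.33) and from 9.25 to 11.11 in ACE (median 10.20). Here replicate 4 was the highest in both groups and replicate 1 the lowest in control. Pcp4 ranged from 8.89 to 10.29 in control (median 9.42) and from 8.86 to 10.02 in ACE (median 9.33), again with replicate 4 on top.

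Car8 had its highest values in lot 6, with 12.68 in control and 12.76 in ACE, and its lowest in lot 1, with 11.63 and 11.66. Rora stood the other way: lot 1 was highest (8.15 in control, 8.07 in ACE) and lot 6 lowest (6.87 and 6.93). Slc1a6 was between 6.08 and 7.41 in control (median 7.11) and between 6.28 and 7.44 in ACE (median 7.06), and was lowest in lot 3 in both groups. Lhx1 was 2.85 in control and 3.04 in ACE in lot 1, far below the highest values of 5.62 (control, replicate 5) and 6.18 (ACE, replicate 4). Lhx5 ran from 3.01 to 4.47 in control and from 2.37 to 4.26 in ACE, and Foxp2 from 1.87 to 3.06 and from 1.93 to 2.71. For these 2 factors the values of arrays that were not well above background carry little information on their order.

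**Figure D1:**
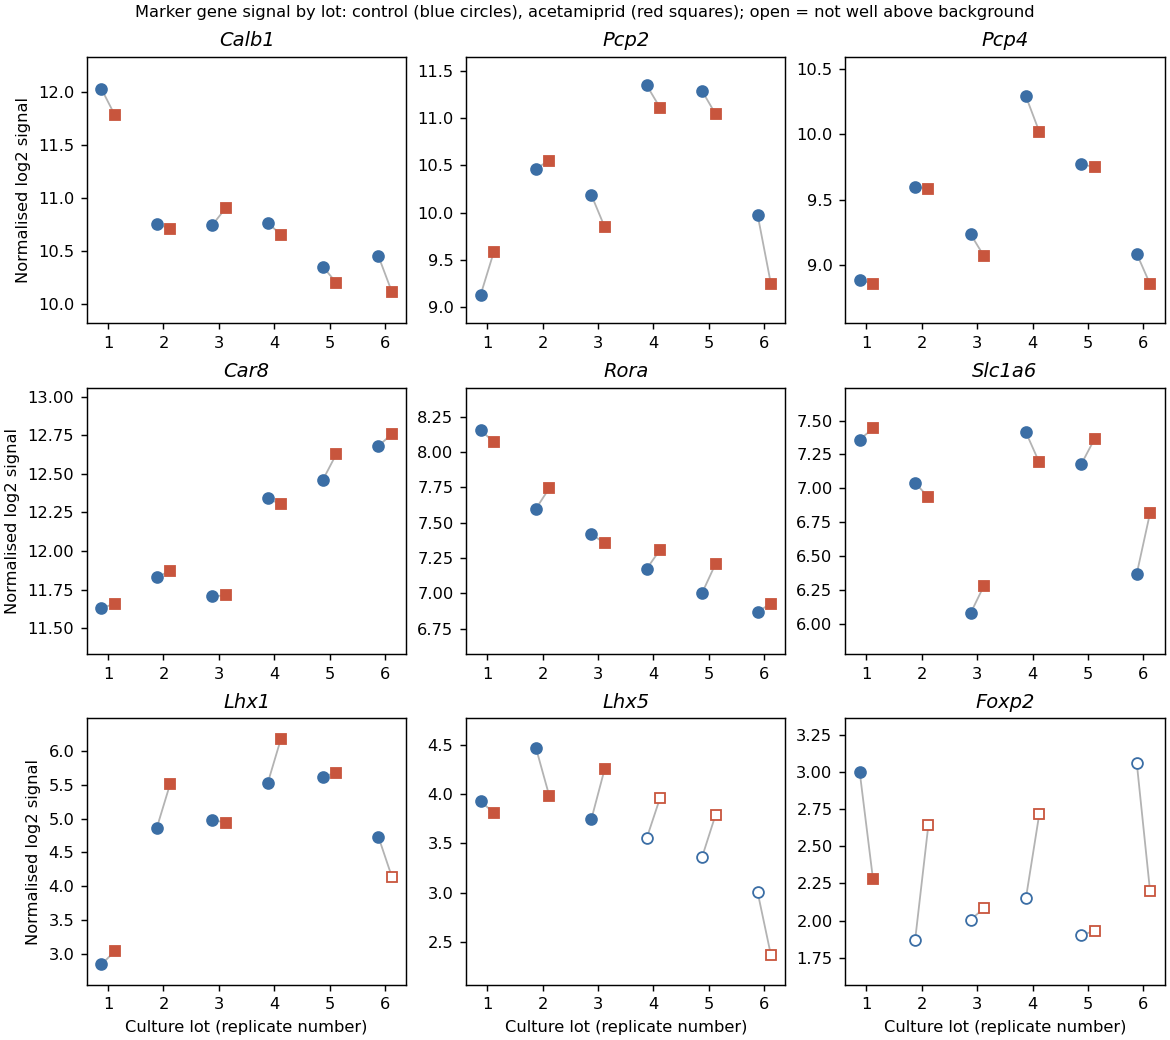
Normalised log2 signal (y axis, own scale per panel) of the 9 marker genes in the control (circles) and ACE (squares) culture of each of the 6 lots (x axis), with grey lines joining the cultures of a lot; open symbols were not well above background. Lot 1 is highest for Calb1 (12.03 and 11.79) and lowest for Lhx1 (2.85 and 3.04), and the cultures of a lot sit closest together for Car8 and farthest apart, relative to the lots, for Foxp2.

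The comparison of control with ACE (CvA) addressed whether long exposure to a low concentration of acetamiprid changes gene expression, here that of Purkinje cell markers. With limma and the lot as a block, 0 of the 8 tested markers were past an adjusted p of 0.05. Over all 23796 tested probes the share was likewise 0%, and 16.6% were under 0.05 before adjustment. Before adjustment 1 of the 8 markers, Pcp4, was under 0.05 by limma, and it was also the only one under 0.05 by the exact signed-rank test. In each test this was 1 of 8, close to the background share. The adjusted limma p of the 8 markers ran from 0.270 (Pcp4) to 0.971 (Lhx5). Their median difference was 0.03 log2 (5 higher, 3 lower in ACE), against -0.0050 over all tested probes. This median has no stable sign: it was -0.04 for the 6 markers well above background on all arrays, and -0.01, -0.0053 and -0.02 without replicates 3, 4 and 5. The median size of the difference, regardless of direction, was 0.11 log2 for the markers and 0.062 for all tested probes.

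Pcp4 was lower in the ACE culture of all 6 lots. The control mean was 9.48 ± 0.51 and the ACE mean 9.36 ± 0.50 (SD, n = 6 each), and the pair differences were -0.03, -0.01, -0.17, -0.27, -0.02 and -0.23 log2 in lots 1 to 6. The mean difference was -0.12 log2 (95% CI -0.23 to -0.01), or 0.919 of the control level, with an unadjusted limma p of 0.0363. Of all tested probes, 11.6% had the same direction in all 6 pairs. The difference was within 0.03 log2 of 0 in 3 of the lots, and its unadjusted limma p was 0.0869 without replicate 3, 0.0928 without replicate 4 and 0.10 without replicate 6. Within the scan batch that held 3 pairs (lots 4, 5 and 6) the limma difference was -0.17 log2 with an unadjusted p of 0.0792. The unadjusted p was also above 0.05 with normexp background correction (-0.07 log2, p 0.167), with the deposited values (-0.11, p 0.0802), with the replicate as a random block (p 0.128) and with no block (p 0.663).

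Pcp2, which resembled Pcp4 in its levels across lots, differed less regularly between the groups. Its pair differences were 0.46, 0.08, -0.34, -0.24, -0.24 and -0.73 log2 in lots 1 to 6, so that 4 lots were lower and 2 higher in ACE. The mean difference of -0.17 log2 (95% CI -0.52 to 0.18) was smaller than the spread of 0.40 (SD, n = 6) between the pair differences, and its adjusted limma p was 0.584. Without replicate 1, the lot that went most clearly the other way, the difference was -0.29 log2, and its limma p was 0.0472 before and 0.297 after adjustment. Without replicate 6 it was -0.05 log2, and in the scan batch of lots 4, 5 and 6 it was -0.40 (unadjusted p 0.0506). These 2 lots held its most positive and its most negative pair difference.

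Calb1 was lower in ACE in 5 of 6 lots, with a mean difference of -0.12 log2 (95% CI -0.28 to 0.03) and an adjusted limma p of 0.385. Lot 3 was the exception, with 0.16 log2. The limma difference was -0.18 log2 without replicate 3 (unadjusted p 0.0123, adjusted 0.207), -0.20 in the scan batch of lots 4, 5 and 6 (unadjusted p 0.0436, adjusted 0.349) and -0.080 without replicate 6. Car8 was higher in 5 of 6 lots, by 0.05 log2 on average (95% CI -0.03 to 0.12, adjusted limma p 0.498). Its interval was the narrowest of the 8, and the difference was 0.02 without replicate 5. The interval of Rora ran from -0.05 to 0.18 log2 around a difference of 0.06, which was 0.04 without replicate 5, 0.13 in the scan batch of 3 pairs and 0.0061 with 75th percentile scaling, and that of Slc1a6 from -0.11 to 0.31 around 0.10. The Slc1a6 difference was 0.16 without replicate 4, 0.03 without replicate 6, 0.04 with 75th percentile scaling and 0.06 with normexp. Rora and Slc1a6 were each higher in ACE in 4 of 6 lots.

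The LIM homeodomain factors had the widest intervals. Lhx1 differed by 0.15 log2 (95% CI -0.25 to 0.56), with pair differences from -0.58 to 0.66. This difference was 0.05 without replicate 2 or replicate 4, 0.30 without replicate 6, 0.02 with normexp background correction, and -0.0033 after scaling by the 75th percentile in place of quantile normalisation. Lhx5 differed by 0.02 log2 (95% CI -0.42 to 0.45), with 3 lots higher and 3 lower, and ran from -0.082 to 0.15 when single lots were left out. At this number of lots a difference of up to 1.47-fold in Lhx1 could not be told from none. Foxp2, which was not tested, averaged 2.33 ± 0.55 across the control arrays and 2.31 ± 0.31 across the ACE arrays (SD, n = 6 each).

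**Figure D2:**
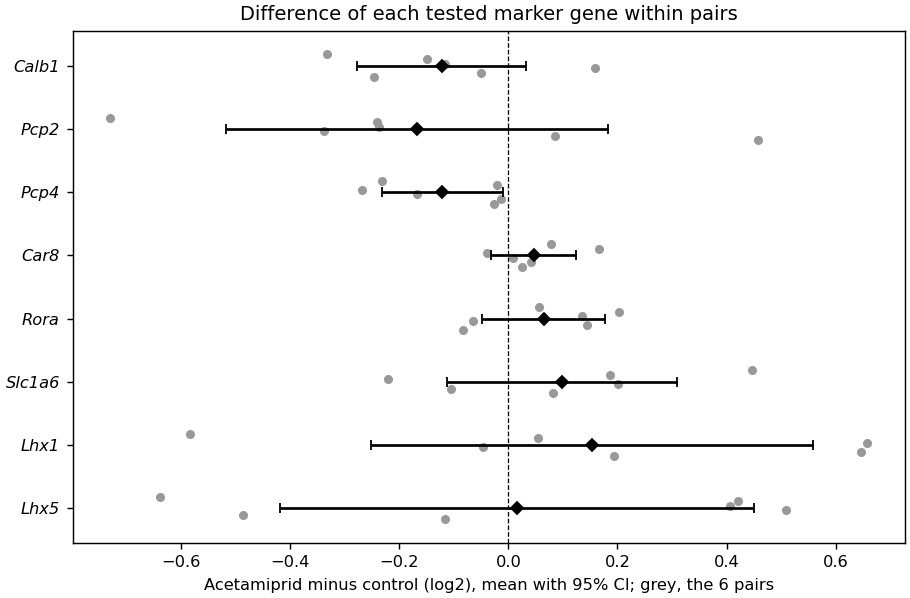
Difference between the ACE and the control culture in log2 units (x axis) for the 8 tested marker genes (y axis): grey points are the 6 lots, diamonds the mean and bars the 95% CI from limma. Only the interval of Pcp4 (-0.23 to -0.01) leaves out 0, before adjustment.

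A list of 28 other Purkinje cell genes was read in the same way. Of these, 27 were on the array and 26 genes passed the filter, with 38 probes. Skor2 was not found by name, and Doc2b was below the filter. None of the 38 probes was past the adjusted limma threshold (0 of 38), and 11 probes of 11 genes were under 0.05 before adjustment, 4 higher and 7 lower in ACE. That is 28.9% of the probes, against 16.6% of all tested probes. Among the cell type lists it was 40% for the microglia list (4 of 10 probes), 33.3% for skeletal muscle (2 of 6, with a median of -0.93 log2 and all 6 genes lower in ACE) and 25% for oligodendrocytes (3 of 12). It was below that of all tested probes for the other 6 lists, at 14.3% for astrocytes and Bergmann glia, 12.5% for the pan-neuronal list, 9.09% for granule cells and for GABA interneurons, and 0% for cerebellar nuclei and meningeal fibroblasts. None of these list probes passed the adjusted threshold either (0 probes). The median difference over the 26 genes was -0.03 log2, against -0.0050 over all tested probes.

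The lower probes included those of Kitlg (-0.21 log2), the ligand of the Kit receptor, Shank1 (-0.16), a postsynaptic scaffold, Cacna1a (-0.13), the pore of the P/Q-type calcium channel, and Dner (-0.08), a Notch-like protein. The adjusted limma p of the 7 lower probes ran from 0.172 to 0.297, and Kitlg, Shank1 and Dner were lower in 6 of 6 lots. The 4 higher probes were those of Nefh (0.17 log2), the heavy neurofilament subunit, Gng13 (0.16), a G protein gamma subunit, Homer3 (0.12), a scaffold of group I glutamate receptors, and Dab1 (0.10), the adaptor of reelin signalling. Homer3 and Dab1 were higher in 6 of 6 lots. Other probes of the same genes did not always go the same way: a further Gng13 probe differed by -0.03 log2, and both other Kitlg probes were higher in ACE, by 0.03 and 0.07 log2.

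The largest differences on this list, whatever their p, included those of Ebf2 (-0.60 log2), Cacna1a by its dimmer probe (-0.23) and Kitlg on the lower side, and of Rgs8 (0.20) and Nefh on the higher side. The interval of Ebf2 was -1.54 to 0.34, and its probe was well above background on 9 of 12 arrays. None of these values passed the adjusted limma threshold.

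The levels of the markers differed far more between lots than between the groups. With the lot as the tested term of the same limma fit (F test), 8 of 8 markers differed between lots at an adjusted p under 0.05, as did 83.9% of all tested probes. The adjusted p ran from 4.9e-05 for Car8 to 0.0284 for Lhx5. The SD between lot means was 1.06 log2 for Lhx1, 0.79 for Pcp2, 0.60 for Calb1, 0.50 for Pcp4, 0.46 for Car8 and 0.43 for Rora. The median over the 8 markers was 0.52, against 0.29 over all tested probes. Between the highest and the lowest lot, signal differed 7.5-fold for Lhx1, 3.65-fold for Pcp2, 3.10-fold for Calb1 and 2.43-fold for Pcp4. Lot 1 set much of this for Lhx1 and Calb1: without it the folds were 2.67 and 1.46 and the SDs 0.56 and 0.26, against 3.07-fold for Pcp2 and 2.27-fold for Pcp4. Lhx1 was below the 20th percentile on both arrays of lot 1. For Lhx5 the SD was 0.54 with all lots and 0.25 without lot 6, on whose arrays it was below the 20th percentile. The SD between lots was 6.52 times the SD of the pair differences for Car8 and 4.35 times for Pcp4, but 1.07 times for Lhx5 and 0.455 times for Foxp2. As said above, equal SDs would not mean that lots did not differ. The median ratio was 2.88 over the 8 tested markers and 2.08 over all tested probes, so that larger differences between lots than within them were general to these arrays.

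Lot is bound up with how the arrays were read. Intensities of lot 1 were read with an older release of the image extraction software, and lots 1, 2 and 3 each had a scan batch of their own. Each lot also had its own slide, so lot and slide cannot be told apart, also among lots 4, 5 and 6. Without lot 1, 8 of 8 markers still differed between lots (70.5% of all tested probes). Within the batch of lots 4, 5 and 6 the markers past the adjusted threshold were Pcp2 and Pcp4, 2 of 8, against 8.91% of all tested probes. In these 3 lots the mean of Pcp2 was 11.23, 11.16 and 9.61, and that of Pcp4 was 10.15, 9.76 and 8.97. Lots 4 and 5 were close to each other, and lot 6 lay clearly below both. In lots 1 to 3, the part of the scan batches and the software in the levels was not tested, nor was that of the slide in any lot.

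The markers did not follow 1 common course over the lots. Pcp2, Pcp4 and Lhx1 had their 6 lot means in exactly the same order, with lot 4 highest, followed by lots 5, 2, 3, 6 and 1. The Pearson correlation over the 6 lot means was 0.97 for Pcp2 with Pcp4 (Spearman 1.00), 0.90 for Pcp2 with Lhx1 (Spearman 1.00) and 0.86 for Pcp4 with Lhx1 (Spearman 1.00). Exact two-sided permutation over the 720 orders gave an unadjusted p of 0.00417, 0.00139 and 0.0236 for Pearson, the adjusted values over all 36 pairs of markers being 0.075, 0.05 and 0.121. For Spearman the permutation p was 0.00278 for each, and 0.0333 after adjustment. The smallest p that 6 lots allow for Pearson is 0.00139. Without the 2 lots farthest from the median of the first gene, r was 0.97, 0.98 and 0.95 over the remaining 4 lots.

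Calb1 and Rora formed another pair, with r = 0.92 (Spearman 0.89, exact permutation p of 0.00833 and 0.0333, adjusted 0.1 and 0.2), and r = 0.81 without the 2 lots farthest from the median. Both were highest in lot 1 and lowest in lots 5 and 6. Calb1 had means of 11.91, 10.74, 10.83, 10.71, 10.28 and 10.29 in lots 1 to 6, and Rora 8.11, 7.67, 7.39, 7.24, 7.11 and 6.90. Car8 was opposed to both of them, at r = -0.78 with Calb1 and -0.87 with Rora (Spearman -0.94 for both, exact permutation p of 0.0222 and 0.0194, adjusted 0.121 for both). Without the 2 farthest lots these were -0.90 and -0.70. Car8 stood at 11.64, 11.85 and 11.71 in lots 1 to 3 and at 12.32, 12.55 and 12.72 in lots 4 to 6, a split that coincides with the scan batches.

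Calb1 and Pcp2, both widely used to identify Purkinje cells, did not go together. Their r over the 6 lot means was -0.53 (Spearman -0.54, exact permutation p of 0.279 and 0.297, adjusted 0.729 and 0.713), and without the 2 lots farthest from the median of Calb1 it was 0.55. The negative value therefore rested on those lots, of which lot 1 is one. Slc1a6 had r between -0.07 and 0.41 with each of the other 8 markers. Without lot 1 its r was 0.86 with Pcp2, 0.86 with Pcp4, 0.78 with Lhx1 and 0.42 with Car8, and between -0.27 and 0.10 with Calb1, Rora, Lhx5 and Foxp2. Among the 15 pairs of the 6 markers well above background on every array, 9 correlations were positive and 6 negative. Their median r was 0.30, and 0.17 to 0.32 with 1 lot left out, against 0.010 over all pairs of the 20057 tested probes of the same kind. Of these 15 pairs, 2 had r over 0.9 and 0 had r under -0.9, against 2.23% and 1.90% of all probe pairs. Over all 36 pairs, which include the dim Lhx5 and Foxp2, the median r was 0.19, falling to 0.015 without replicate 6. In all, 7 of 36 pairs had an unadjusted Pearson p under 0.05, and 0 had an adjusted Pearson p under 0.05, with Pcp2 and Lhx1 exactly at 0.05. By Spearman 3 pairs had an adjusted p under 0.05, those among Pcp2, Pcp4 and Lhx1. When lot 1 was left out, 13 of the 36 correlations changed sign. A batch of 3 lots is too small to repeat these correlations within a scan batch.

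**Figure D3:**
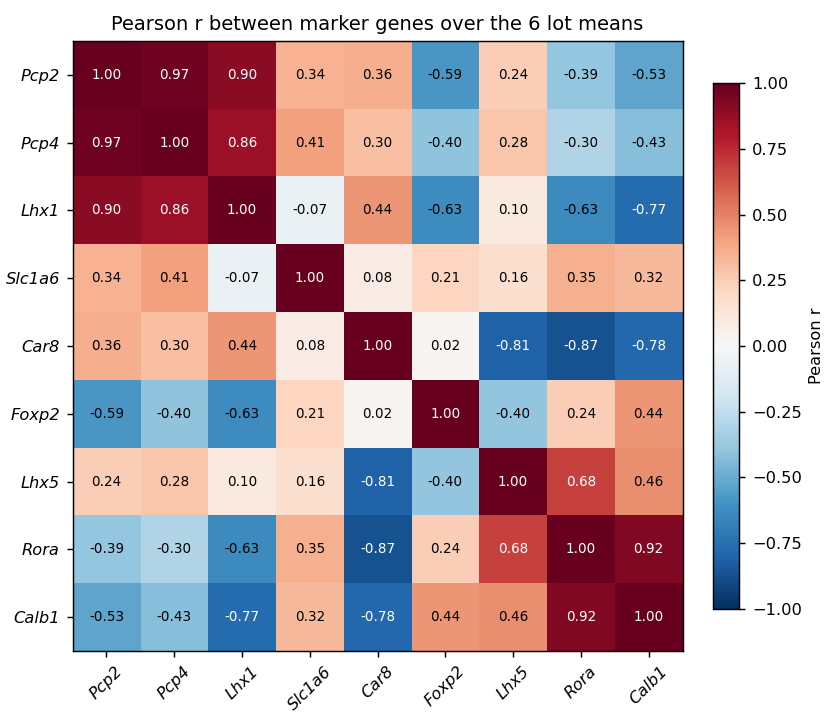
Pearson correlation (colour and number) between each pair of the 9 marker genes over the 6 lot means, with genes on both axes ordered so that those with like profiles are adjacent. Pcp2, Pcp4 and Lhx1 form a positive block (0.86 to 0.97), Calb1 and Rora another (0.92), and Car8 is negative with Rora (-0.87) and Calb1 (-0.78).

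The pair differences between control and ACE were also compared between markers. Over the 6 pair differences, the median r of the 36 pairs was 0.03, and 1 pair had an unadjusted p under 0.05. This was Slc1a6 with Lhx1, whose pair differences were exactly opposite in order (r = -0.99, Spearman -1, exact permutation p of 0.00139 and 0.00278, adjusted Pearson p of 0.05, r = -0.99 without the 2 farthest lots). In lot 4 Lhx1 was 0.66 higher and Slc1a6 0.22 lower in ACE, and in lot 6 Lhx1 was 0.58 lower and Slc1a6 0.45 higher. On the ACE array of lot 6 the Lhx1 probe was not well above background. Pcp2 and Pcp4 had r = 0.69 over the pair differences (Spearman 0.43, exact permutation p of 0.149 and 0.419, r = 0.56 without the 2 farthest lots), and Pcp2 and Lhx1 had r = 0.61 (Spearman 0.77, exact permutation p of 0.207 and 0.103, r = 0.68 without the 2 farthest lots). With 6 lots these values do not show whether the grouping seen over lots holds for the differences.

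The profiles of the other Purkinje cell genes were set beside those of Pcp2, Calb1 and Car8. Of the 25 genes with a value in every lot, 8 had r over 0.7 with Pcp2 over the 6 lot means, 5 with Calb1 and 2 with Car8. Of 20051 probes well above background on every array, 3.20% had r over 0.7 with Pcp2, 17.7% with Calb1 and 13.4% with Car8. The sets are unlike: the 25 genes were means of their probes and included dim ones such as Ebf1, while the 20051 were single probes. No test of these shares was made. Those close to Pcp2 included Cacna1g (r = 0.96), a T-type calcium channel, and Ppp1r17 (0.93), a phosphatase inhibitor known as G-substrate. Relative to its own mean, Ppp1r17 was at -1.79 log2 in lot 1 and at 1.02 in lot 5. Different probes of a gene were averaged for these profiles. Those closest to Calb1 were Aldoc (0.90), which marks the zebrin-positive bands of Purkinje cells and is also abundant in astrocytes, Plcb4 (0.85), Shank1 (0.85), Rgs8 (0.83) and Ebf2 (0.75). Dab1 followed Car8 at r = 0.99. These are descriptions over 6 points that share their arrays and brightness.

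**Figure D4:**
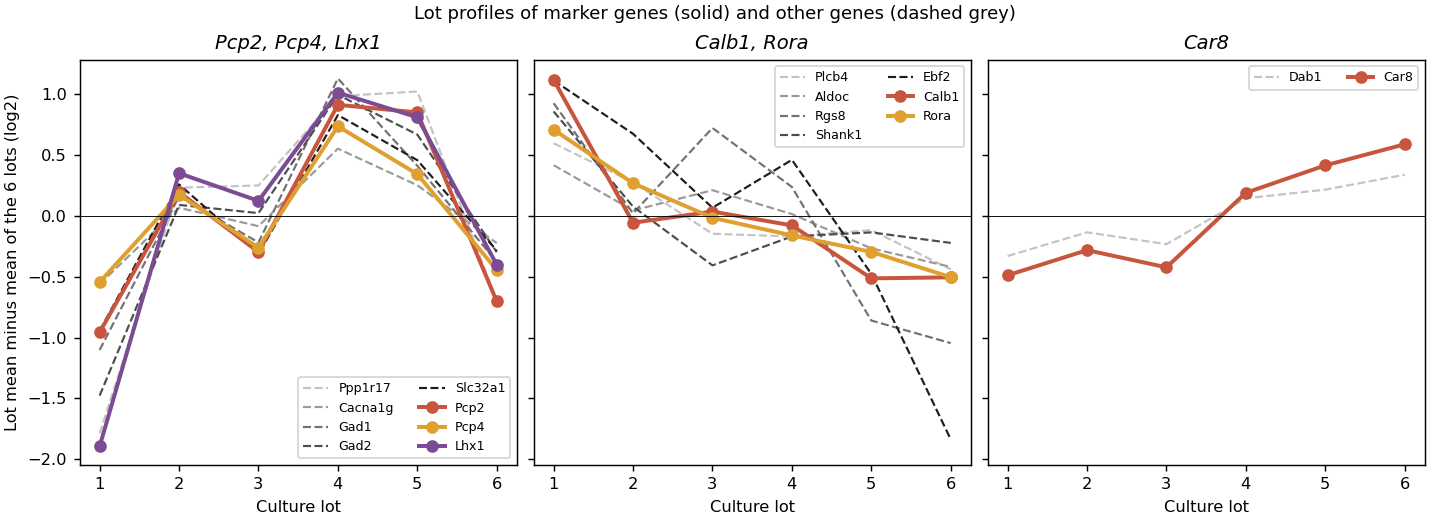
Lot mean minus the mean of the 6 lots in log2 units (y axis) against lot (x axis, joined only to follow a gene) for marker genes (solid) and for other Purkinje cell and inhibitory neuron genes named in the text (dashed). The left panel has its low point in lot 1 and its high points in lots 4 and 5, the middle panel its high point in lot 1, and Car8 lies below 0 in lots 1 to 3 and above 0 in lots 4 to 6.

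By the measure set for this purpose, the correlation over the 12 arrays with the mean of the standardised values of the 7 markers that were well above background on at least 10 arrays, the most alike genes were Spock2 (r = 0.91), Gng3 (0.91), Evc2 (0.91), LOC689065 (0.89), Syn2 (0.89), Sncb (0.88), Cplx1 (0.88) and Camk2b (0.88). Without the arrays of lot 1 they included Car7, Cplx1, Scg5, Nefl, Syngr3, Dnajc6 and Plcxd2, at r of 0.96 to 0.98, so that Cplx1, by different probes, was the only gene in both sets. Pcp4 (r = 0.88) and Pcp2 (0.83) were close to this mean, while Calb1 (-0.07) and Rora (0.03) were not. The genes nearest to Pcp2 and to Calb1 were therefore also sought singly, a choice made after the values had been seen. Nearest to Pcp2 over the 12 arrays were Camk2b (0.95), Gprin3 (0.94), Car7 (0.94), Nefl (0.93) and Ppp1r17 (0.92). Nearest to Calb1 were Prmt2 (0.99), Nbl1 (0.98), RGD1563667 (0.98), Kbtbd11 (0.98) and Gfap (0.98), the last being the intermediate filament of astrocytes. The 8 nearest genes to Calb1 without lot 1 shared none of these names and were led by Fgfr3 (0.97).

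Other cell types also varied between lots, and their part in the marker levels was not tested. The list of 8 cerebellar GABA interneuron genes stood 0.56 log2 below its mean in lot 1 and 0.46 above it in lot 4. All 8 genes of this list were measured, and the summed intensity of its probes ranged from 166990 to 264446 in control and from 167085 to 254842 in ACE, a sum made up mostly of the Npy probes. Over the 6 lots its mean had r = 0.94 with Pcp2 (Spearman 0.94, exact permutation p of 0.0153 and 0.0167, adjusted 0.146 and 0.125 over 90 relations of a marker with a list). Without the 2 farthest lots r was 0.87. The GABA-synthesising enzymes Gad1 (r = 0.94) and Gad2 (0.92) and the vesicular GABA transporter Slc32a1 (0.95), which Purkinje cells share with other inhibitory neurons, had r with Pcp2 in the same range as the Purkinje cell genes named above. Of the other genes of the interneuron list, r with Pcp2 was 0.85 for Slc6a5, 0.77 for Sst, 0.62 for Kit, 0.03 for Pax2 and -0.02 for Npy, the last 2 being highest in lot 1. In all, 5 of the 8 genes of the interneuron list had r over 0.7 with Pcp2 (62.5%). Gad1, Gad2 and Slc32a1 were among these 5 and are not particular to interneurons. The share was 32% for the other Purkinje cell genes (8 of 25) and 3.20% for single probes well above background on every array. The difference between these shares was not tested. The pan-neuronal list had r = 0.92 with Pcp4 (Spearman 0.94, exact permutation p of 0.00694 and 0.0167, adjusted 0.146 and 0.125, r = 0.76 without the 2 farthest lots).

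The 8 oligodendrocyte genes stood 0.38 log2 below their mean in lot 1 and 0.51 above it in lot 6, with r = 0.94 to Car8 and -0.91 to Rora (Spearman 0.83 and -0.94, exact permutation p of 0.0139 and 0.00972 for Pearson, adjusted 0.146 for both). Without the 2 farthest lots these were 0.95 and -0.92. The 8 measured astrocyte and Bergmann glia genes had r = 0.79 with Calb1 (Spearman 0.89, exact permutation p of 0.0389 and 0.0333, adjusted 0.206 and 0.214, r = 0.90 without the 2 farthest lots) and -0.91 with Car8 (Spearman -0.94, exact permutation p of 0.00556 and 0.0167, adjusted 0.146 and 0.125, r = -0.64 without the 2 farthest lots). Of the 90 relations, 17 had an unadjusted Pearson p under 0.05 and 0 an adjusted one. All 12 oligodendrocyte probes and 13 of 14 astrocyte probes were well above background on every array. The summed intensity was 488133 to 780424 in control and 493610 to 796233 in ACE for the oligodendrocyte list, and 418442 to 652393 and 410506 to 639981 for the astrocyte list.

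Markers of skeletal muscle, a tissue that is not part of the cerebellum, were present too. The 6 genes of this list were well above background on all arrays, stood 1.82 log2 above their mean in lot 1 and 1.05 in lot 2, and were 0.98 below it in lot 4. The summed intensity ranged from 24813 to 99534 in control and from 29150 to 63422 in ACE. Myh8 went otherwise, with a lot mean of 14.80 in lot 1 and 15.98 in lot 2. The other genes of the list were highest in lot 1. Lot 1 was where Calb1 and Rora were highest and Pcp2, Pcp4, Car8 and Lhx1 lowest. It was also the lot with the highest mean log2 level of the muscle list, the brightest arrays and the older software version. Which of these goes with which cannot be told apart here.

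**Figure D5:**
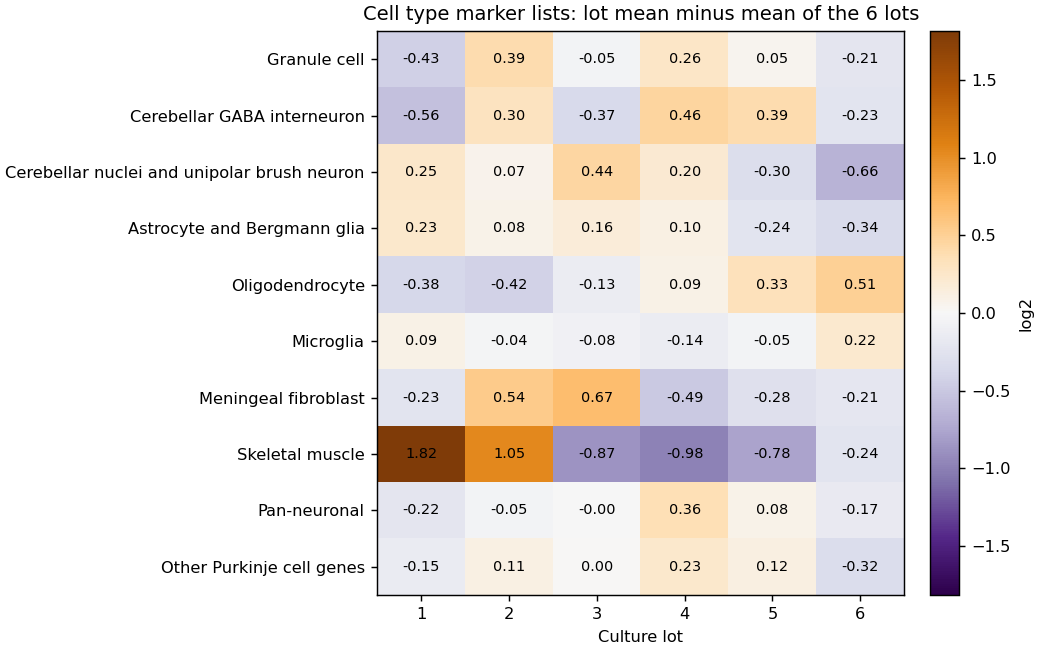
Mean of each cell type marker list in each lot minus its mean over the 6 lots (colour and number, log2 units; lists on the y axis, lots on the x axis). Skeletal muscle genes are 1.82 above their mean in lot 1, oligodendrocyte genes lowest in lots 1 and 2 and highest in lot 6, and GABA interneuron genes lowest in lot 1 and highest in lot 4.

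The upstream sequence of Pcp2 is shown because Rora, itself a marker, is a receptor that binds the half-site AGGTCA, and Pcp2 and Rora had r = -0.39 over the lots (Spearman -0.31, exact permutation p of 0.447 and 0.564, adjusted 0.748 and 0.846, r = 0.25 without the 2 farthest lots). RefSeq (build GRCr8) gave an upstream sequence for 5 of the 9 markers, Pcp2, Pcp4, Rora, Slc1a6 and Lhx1. Within 250 bases before the start, AGGTCA or its reverse complement occurred in 1 of these, Pcp2, and in 14.1% of all 33469 promoters of the same length. In Pcp2 it lay on the strand of the gene, 26 to 21 bases before the start (chr12:6481308-6481557, minus strand, motif in capitals). The array files, in the older build, give the Pcp2 probe on the plus strand, and positions were not converted between builds. The match is a description of the letters and not of binding.
Pcp2: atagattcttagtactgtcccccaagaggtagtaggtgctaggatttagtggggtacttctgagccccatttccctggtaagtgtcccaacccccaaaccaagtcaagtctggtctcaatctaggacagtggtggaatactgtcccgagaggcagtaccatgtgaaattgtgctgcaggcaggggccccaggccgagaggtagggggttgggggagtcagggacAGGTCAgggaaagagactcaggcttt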

How the data were processed

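Gene expression was measured on 12 single-colour arrays. Per the file headers, the authors read out Cy3 intensities by Feature Extraction, in release 11.0.1.1 for both cultures of lot 1 and in release 11.5.1.1 elsewhere (10 arrays). That software had already subtracted the background, and arrays were not yet scaled to each other. A deposited table of log2 values, quantile normalised and centred per probe by the authors, correlated at 0.997 to 0.999 per array with centred values computed here and served as an alternative.

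Outlier spots were set to missing, log2 intensities were quantile normalised and spots of a probe averaged. Probes above the 20th percentile on at least 7 arrays and with at least 4 complete pairs were kept (23796 of 30367). ACE was compared with control by limma 3.58.1 in R 4.3.3 with the lot as a fixed block, two-sided, with Benjamini-Hochberg adjustment over all tested probes at 0.05. Same-numbered arrays came from the same lot of cells, and their deviations from the group means correlated at 0.449 to 0.912, against -0.439 to 0.390 for other arrays. They also shared a slide and a scan batch, so these correlations do not separate the lot from those. On each slide control occupied place 1 and ACE place 3, so that place and exposure cannot be told apart. Correlations used the means of the 6 lots with exact permutation (scipy, numpy). The number of arrays limits the precision.

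The members, the gene lists and the tests were chosen with earlier results of these data known. Named genes were all 9 markers, the other Purkinje cell genes with an unadjusted p under 0.05 or among the 3 largest differences in either direction, and the 8 genes most correlated with the mean of the markers. The F test between lots, the relations with marker lists, the correlations among the 6 markers well above background on all arrays, the shares of probes alike to a marker, the spread between lots with each lot left out and the genes nearest to Pcp2 and Calb1 were added after seeing the data. Alternatives were 75th percentile scaling, normexp background correction, the deposited values, other forms of the block, other filters and leaving out each lot. The limma step was tested on simulated data. A few genes that met these rules are not reported here.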

Additional observations from a re-analysis of the deposited data

Results flagged for a closer look

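In 3 of 27 groups (control values, ACE values and pair differences of the 9 markers), a value lay far from the others by Dixon's ratio, the gap to the nearest value divided by the whole range, taken at its 95% critical value for 6 samples. Chance alone gives such a result in about 1 of 20 groups. Control replicate 1 was the highest for Calb1 (ratio 0.751), with 12.03 against 10.77 for the next, and the ACE culture of the same lot was also the highest of its group. Control replicate 1 was the lowest for Lhx1 (ratio 0.678). ACE replicate 6 was the lowest for Lhx5 (ratio 0.752), on an array where this probe was not well above background.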

How the results depend on the processing

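No marker passed the adjusted limma threshold under any alternative run, and the direction of Calb1, Pcp2, Pcp4, Car8, Rora and Slc1a6 held in all of them. The number of markers under 0.05 before adjustment, 1 as reported, was 0 with normexp background correction, 0 with the deposited values, 0 with no replicate block and 0 with the replicate as a random block, and 0 to 2 with 1 lot left out. The median marker difference ran from -0.02 to 0.05 with 1 lot left out. Lhx1 turned to -0.0033 log2 with 75th percentile scaling, and Lhx5 ranged from -0.082 to 0.15 with 1 lot left out, being below 0 without replicate 3, 4 or 5. The count of other Purkinje cell genes, 11 as reported, was 7 with normexp, 0 with no replicate block, 7 in the scan batch of 3 pairs, 7 by the exact signed-rank test, and 6 to 11 with 1 lot left out. Over all tested probes the count also moved. It was 3956 of 23796 as reported, 4298 of 23801 with normexp and 81 of 23796 with no replicate block. In the scan batch it was 3294 of 23525, by the signed-rank test 2755 of 23796, and with 1 lot left out 2820 to 4166. The count of marker pairs with an adjusted Pearson p under 0.05, 0 as reported, was 4 with 75th percentile scaling (the 3 pairs among Pcp2, Pcp4 and Lhx1, and Rora with Lhx5, each with an adjusted p of 0.0375), and 0 to 0 with 1 lot left out, where 5 lots allow no p below 0.00833. By Spearman, those 3 pairs had an adjusted p under 0.05 as reported, and of 0.05 to 0.0857 with 75th percentile scaling. In the scan batch of 3 pairs, 2 markers differed between lots, against 8 as reported. The cause of these changes was not tested, except that fewer lots were used where lots were left out. The alternative for markers with several probes was not run, as each had 1 probe. Signal over background limits Lhx5 and Foxp2.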
